A study of Mus musculus with 61 samples.

Results

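Drd1, Tac1, Drd2, Adora2a, Gprin3, Ppp1r1b and Pde10a are 7 genes that mark the medium spiny neurons of the striatum, and their levels were followed through 61 tissue fractions of the mouse brain. Each symbol was matched through the RefSeq identifier of its array probe, and the probe with the highest mean signal was taken where a gene had several. The 7 genes stand among 16358 genes named by 22951 of the 41174 probes on the array that are no controls. Of the 7, 2 were taken as direct pathway genes (Drd1 and Tac1), 3 as indirect pathway genes (Drd2, Adora2a and Gprin3), and 2 as genes of both pathways (Ppp1r1b and Pde10a).

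Medium spiny neurons are the inhibitory output cells of the caudate putamen and the nucleus accumbens, and they make up most neurons of these nuclei. Cells of the direct pathway project to the substantia nigra and the internal pallidum, carry the dopamine receptor encoded by Drd1, which raises cyclic AMP, and make substance P from the precursor encoded by Tac1. Cells of the indirect pathway project to the external pallidum, carry the dopamine receptor encoded by Drd2, which lowers cyclic AMP, and the adenosine receptor encoded by Adora2a, and express the membrane protein gene Gprin3. Both kinds use the phosphatase inhibitor DARPP encoded by Ppp1r1b and the phosphodiesterase encoded by Pde10a, which act on cyclic nucleotide signals behind these receptors. Outside the striatum, Drd2 is also the autoreceptor of midbrain dopamine neurons, Tac1 is made in hypothalamic, brainstem and spinal neurons, and Drd1 is found in deep layers of the cerebral cortex.

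The study cut 6 frozen whole brains of untreated male C57BL/6J mice, 8 weeks old and with no genetic change, into fractions of 200 slices of 5 µm (1 mm of tissue), and hybridized the RNA of each fraction to 1 Agilent array. Each plane was cut in 2 mice: sagittal in S (9 fractions, left to right) and So (10), coronal in C (13, caudal to rostral) and Co (16), and horizontal in H (6, dorsal to ventral) and Ho (7). The second mouse of each plane was cut at a slight angle, and the study joined its fractions to those of the first mouse in 28 pairs, taking for each fraction the partner whose array values correlated best over all probes and letting the order of the fractions decide between ties. The 56 paired arrays gave the tests, with the 2 mice of a pair as replicates, whereas So1, Co1, Co13, Co16 and Ho1 had no partner. Because the pairs were picked for likeness on these same arrays, the spread within pairs is likely too small, and the p-values with it, by an amount that was not measured. Each plane also rests on 2 mice, and the tests treat the fractions of 1 mouse as independent. Such fractions deviated together from their pair means (median r = 0.278), so standard errors, intervals and p-values rest on fewer independent units than arrays. A fraction holds all structures cut at its position, so striatum, cortex and septum share coronal fractions, and fewer cells of a type cannot be told apart from less RNA per cell.

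Levels are given as log2 intensity relative to the 75th percentile of the array, so that 0 is the signal below which 75% of the probes of that array lie. Coronal pairs were named by their place along the axis: c1 to c4 hold the caudal end, cerebellum and pons (hindbrain level), c5 and c6 midbrain, c7 and c8 thalamus and hippocampus, c9 to c11 striatum and septum (striatal level), c12 frontal tissue and c13 olfactory bulb. Landmark genes fell in these places: the dopamine transporter gene Slc6a3 was highest in C6 and Co7, the striatal gene Rgs9 in C9 and Co11, and the bulb gene Tbx21 in C13 and Co15. The pair c12 was not frontal tissue alone, since 3 of 3 bulb markers (Doc2g, Tbx21 and Eomes) were higher there than at the striatal level, by 5.58 to 6.58 (log2), and their summed level was 39.5 to 45.7 times the 75th percentile at c12 against 0.315 to 3.70 at the striatal level and 53.3 to 68.4 at c13. The arrays lay on 16 slides, with C1 to C4 on slide 6, C5 to C8 on slide 7 and C9 to C12 on slide 8. Co1 to Co4 lay on slide 10, Co5 to Co8 on slide 11 and Co9 to Co12 on slide 12. Coronal level and slide thus largely coincide, and within C the hindbrain, midbrain and striatal levels cannot be told apart from the slide. The arrays had 57.9% to 73.1% of probes well above background. The 3 lowest of these shares belonged to S1, So1 and So2, which shared a slide and are the outermost left fractions.

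Drd1 lies on chromosome 13 (chr13:54051183-54055658, GRCm38.p6), Tac1 on chromosome 6 (chr6:7555061-7562978), Drd2 on chromosome 9 (chr9:49340360-49408177) and Adora2a on chromosome 10 (chr10:75316877-75334792). Gprin3 lies on chromosome 6 (chr6:59344500-59426306), Ppp1r1b on chromosome 11 (chr11:98348406-98357796) and Pde10a on chromosome 17 (chr17:8525187-8986648). The place of a probe within its gene is not given in the sources used here. Drd2 and Pde10a have 2 probes each, and 1 further probe names Gprin3 by its symbol in the files.

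Windows of 250 bases before annotated transcript starts of Drd1, Tac1 and Drd2 are shown, because the coronal comparison of the receptor genes and Tac1 turns on these 3 genes. Sequences are from RefSeq (GRCm38.p6), read along the strand of the gene, with each GC box (GGGCGG or its reverse complement CCGCCC) in capitals. Drd1 has 2 such starts, on the minus strand, and the start used for Drd2 and one of those of Drd1 lie inside the gene bounds given above, so that the windows reach into the gene.
Drd1, chr13:54055659-54055908: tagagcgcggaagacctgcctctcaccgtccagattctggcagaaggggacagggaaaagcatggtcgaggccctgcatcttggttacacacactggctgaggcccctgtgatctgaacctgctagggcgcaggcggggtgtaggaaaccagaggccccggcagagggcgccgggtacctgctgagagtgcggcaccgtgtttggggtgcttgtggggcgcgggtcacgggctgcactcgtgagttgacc
Drd1, chr13:54054781-54055030: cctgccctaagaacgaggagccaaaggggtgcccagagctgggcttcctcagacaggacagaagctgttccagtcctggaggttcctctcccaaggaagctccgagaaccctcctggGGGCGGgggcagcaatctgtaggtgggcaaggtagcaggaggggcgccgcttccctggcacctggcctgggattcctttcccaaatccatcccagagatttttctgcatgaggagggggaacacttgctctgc
Tac1, chr6:7554811-7555060: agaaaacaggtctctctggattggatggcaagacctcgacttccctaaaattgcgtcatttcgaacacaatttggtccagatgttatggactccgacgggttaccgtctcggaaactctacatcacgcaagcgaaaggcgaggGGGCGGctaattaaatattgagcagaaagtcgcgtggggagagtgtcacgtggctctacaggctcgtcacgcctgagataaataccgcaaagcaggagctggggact
Drd2, chr9:49340153-49340402: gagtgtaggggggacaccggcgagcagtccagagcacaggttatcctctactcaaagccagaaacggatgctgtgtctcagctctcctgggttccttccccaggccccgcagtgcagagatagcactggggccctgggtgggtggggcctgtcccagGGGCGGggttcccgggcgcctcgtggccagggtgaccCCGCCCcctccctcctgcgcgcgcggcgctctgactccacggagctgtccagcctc
Drd2 had 2 GC boxes in this window, Tac1 had 1, and Drd1 had 0 before one start and 1 before the other. A GC box was in 32.7% of 32851 such windows of all genes. Neither the cyclic AMP response element TGACGTCA (in 1.55% of all windows) nor TATAAA (in 12.4%) was in these 4 windows, searched on both strands. These matches describe letters only.

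All 7 genes varied over the brain. Each passed limma's moderated F test over the 28 pairs, beside 61.3% of the 36573 probes detected on at least 1 array. Drd1 had the smallest adjusted p (8.97e-14), followed by Tac1 (6.40e-12), Ppp1r1b (2.32e-09), Drd2 (3.28e-09) and Pde10a (2.30e-08), whereas Adora2a (9.91e-04) and Gprin3 (1.69e-03) had the largest. Over the coronal pairs 7 of 7 varied (47.1% of probes), over the horizontal pairs 5 of 7 (12.0%) and over the sagittal pairs 4 of 7 (11.1%). Adora2a and Gprin3 passed in neither of the last planes, and Drd1 did not pass in the sagittal plane (adjusted p = 0.351). When fractions were instead paired by their number, which uses no array values, 5 of 7 genes varied, and Adora2a (adjusted p = 0.108) and Gprin3 (0.794) did not pass.

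From its lowest to its highest fraction Drd1 spanned 8.70 (log2), larger than the span of 99.7% of detected probes, whose median was 2.13. Drd2 spanned 5.63, Gprin3 5.52, Tac1 4.54, Ppp1r1b 4.49 and Pde10a 4.12. Adora2a spanned 1.75, which is larger than for only 41.0% of probes. Thus the 3 indirect pathway genes held both a wide and the narrowest range among the 7 genes. Drd1 was not well above background in C3 and Co4, and Gprin3 in C12 and Co15, so their lowest levels there have no exact size.

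**Figure D1:**
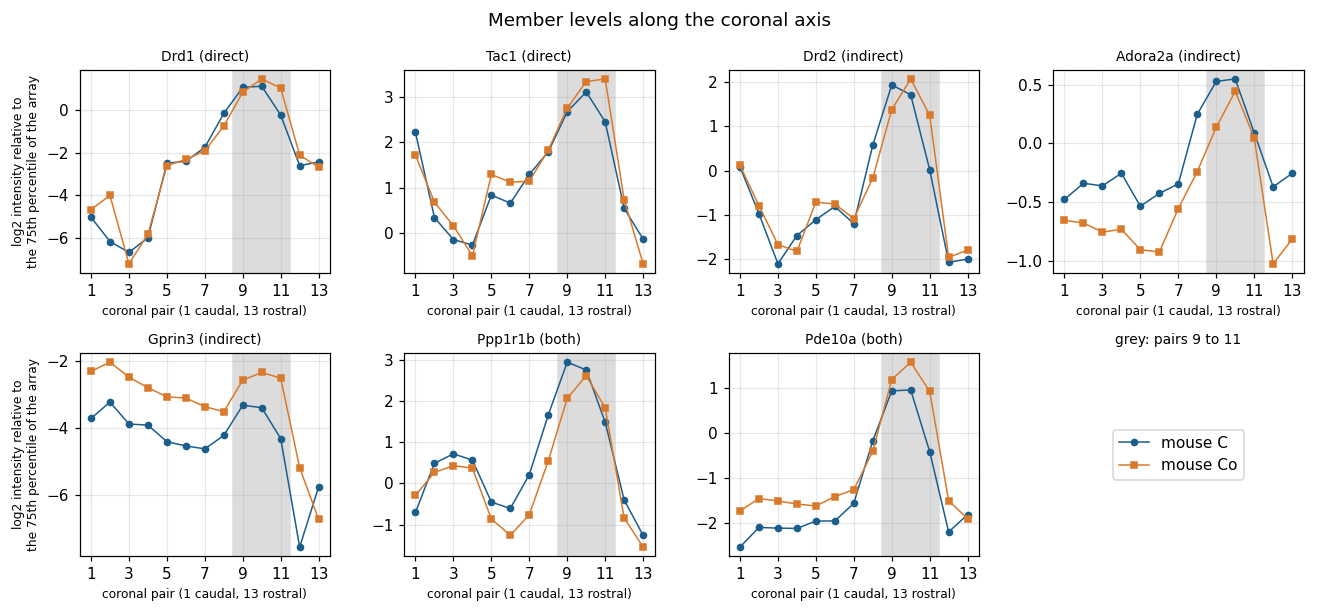
Level of each gene (log2 intensity relative to the 75th percentile of the array) in the 13 coronal pairs, from caudal (1) to rostral (13), in mouse C (circles) and mouse Co (squares); each panel has its own scale, and grey marks the striatal level, c9 to c11. All genes but Gprin3 have their highest fraction of both mice in the grey band, and Drd1 lies between -7.21 and -4.00 in pairs 1 to 4 against -0.21 to 1.49 in the band.

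Along the coronal axis, 6 of the 7 genes had their highest fraction at the striatal level in both mice. The exception was Gprin3, which was highest in C2 and Co3. From the hindbrain level (8 arrays) to the striatal level (6 arrays), 6 of 7 genes were higher, beside 20.4% of all probes, with a median difference of 2.43 (log2) over the 7 genes and -0.12 over all probes.

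Drd1, the direct pathway receptor gene, was at 1.09, 1.14 and -0.21 in C9, C10 and C11, and at 0.86, 1.49 and 1.05 in Co10, Co11 and Co12. In the hindbrain fractions it was at -5.02, -6.17, -6.68 and -5.99 in C1 to C4, and at -4.66, -4.00, -7.21 and -5.83 in Co2 to Co5. The ranges lay far apart, and the difference of 6.60 ± 0.28 (SE; adjusted p = 9.90e-19) is a fold of 96.8, nearly the same in C (6.64) and Co (6.56). Without c3, the pair in which neither array was well above background, the difference was 6.18 (95% interval 5.57 to 6.78).

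Drd1 also differed between the other caudal levels. Its 4 midbrain arrays were at -2.48 and -2.39 (C5, C6) and -2.59 and -2.30 (Co6, Co7), a tight range that lay above all 8 hindbrain arrays. The difference from the hindbrain level was 3.25 ± 0.31 (adjusted p = 1.04e-09), and 4.57 ± 0.31 at c7 and c8 (adjusted p = 3.22e-13). An alternative, below called normexp, used normexp background correction with an offset of 50, which compresses low intensities, and quantile normalization between arrays. With it the 2 differences were 1.65 and 2.87, with the same direction and still past the threshold. With fractions paired by number the midbrain difference was 2.01 (adjusted p = 0.0261). In the order of the levels, c9 to c11 came first (mean 0.90), then c7 and c8 (-1.13), c12 (-2.35), c5 and c6 (-2.44), c13 (-2.54), c1 (-4.84) and c2 to c4 (-5.98). Neighbours in this order overlapped except that gaps lay between c7 and c8 and c12, and between c13 and c1. The unpaired Co1, caudal to c1, was at -2.93, above all 8 hindbrain arrays.

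Tac1, the gene of the substance P precursor, was at 2.67, 3.11 and 2.45 in C9 to C11 and at 2.75, 3.33 and 3.39 in Co10 to Co12, above every array of the other coronal levels. In the hindbrain fractions it was at 2.21, 0.34, -0.14 and -0.27 in C1 to C4, and at 1.71, 0.68, 0.16 and -0.50 in Co2 to Co5. The most caudal pair, c1, stood out among these in both mice, and the unpaired Co1 was at 2.34. Tac1 was higher at the striatal than the hindbrain level by 2.43 ± 0.17 (adjusted p = 1.26e-13), and higher at c7 and c8 by 0.99 ± 0.19 (adjusted p = 8.11e-05). The c7 and c8 difference did not pass with fractions paired by number (0.46, adjusted p = 0.377) or with the slide as a fixed block (1.39, adjusted p = 0.0585). The midbrain difference of Tac1, 0.45 ± 0.19, did not pass in the main model (adjusted p = 0.0621).

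Drd2, the indirect pathway receptor gene, was at 1.94, 1.71 and 0.02 in C9 to C11 and at 1.38, 2.07 and 1.25 in Co10 to Co12. In the hindbrain fractions it was at 0.09, -0.97, -2.10 and -1.46 in C1 to C4, and at 0.12, -0.79, -1.66 and -1.82 in Co2 to Co5. As with Tac1, c1 held the highest of these in both mice, and C11 lay below it. The striatal difference was 2.47 ± 0.27 (adjusted p = 3.35e-09). The second Drd2 probe gave 2.37, and the model with the slide as a fixed block gave 3.97 (adjusted p = 0.0229). The midbrain level, at -1.10, -0.81, -0.71 and -0.75 in C5, C6, Co6 and Co7, lay inside the hindbrain range, with a difference of 0.23 ± 0.30 (95% interval -0.39 to 0.85, adjusted p = 0.589).

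Adora2a, the adenosine receptor gene, was at 0.53, 0.55 and 0.09 in C9 to C11 and at 0.14, 0.44 and 0.05 in Co10 to Co12. Its 8 hindbrain arrays lay between -0.25 and -0.75, below all of these. The striatal difference of 0.83 ± 0.12 (adjusted p = 1.45e-06) was the smallest of the 6 that passed. From c5 to c8 Adora2a did not differ from the hindbrain level (adjusted p = 0.384 for midbrain, 0.0861 for c7 and c8).

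Gprin3, whose protein binds G protein alpha subunits, gave a weak signal with a mean of 132 intensity units over the 61 arrays before scaling. At the striatal level it was at -3.31, -3.38 and -4.31 in C9 to C11 and at -2.56, -2.33 and -2.50 in Co10 to Co12. The hindbrain arrays, at -3.22 to -3.90 in C and -2.03 to -2.79 in Co, overlapped these, although C11 lay below all of them, and the difference was -0.03 ± 0.37 (95% interval -0.79 to 0.72, adjusted p = 0.954). The further Gprin3 probe gave 0.71 ± 0.24 (adjusted p = 0.0135), so that all 7 genes were higher at the striatal level with the alternative probes.

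Of the genes of both pathways, Ppp1r1b was at 2.94, 2.75 and 1.49 in C9 to C11 and at 2.07, 2.62 and 1.84 in Co10 to Co12, above every array of c1 to c4, which lay between -0.70 and 0.72. The striatal difference was 2.05 ± 0.21 (adjusted p = 1.02e-09). At midbrain Ppp1r1b was lower than at the hindbrain level, by -1.03 ± 0.24 (adjusted p = 0.00109; C -0.80, Co -1.26), beside 20.7% of probes that were lower. It was the only member with a significantly lower midbrain level, since Drd1 was higher (beside 13.9% of probes) and the other 5 genes did not pass. When slides entered the model as a fixed block, this Ppp1r1b difference was -1.21 (adjusted p = 0.121). With fractions paired by number it was -0.52 (adjusted p = 0.464).

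Pde10a was at 0.93, 0.95 and -0.42 in C9 to C11 and at 1.18, 1.57 and 0.92 in Co10 to Co12, against -1.47 to -2.55 in the 8 hindbrain arrays. Its striatal difference was 2.76 ± 0.23 (adjusted p = 1.15e-11), the second largest after Drd1. At c7 and c8 it was higher by 1.04 ± 0.26 (adjusted p = 0.00172). Thus 3 of 7 genes, Drd1, Tac1 and Pde10a, passed at that level, beside 16.8% of probes. Pde10a did not pass there with fractions paired by number (0.82, adjusted p = 0.0954) or with the slide as a fixed block (1.18, adjusted p = 0.192), and neither did Tac1. The second Pde10a probe gave 2.80 for the striatal difference and 0.80 for c7 and c8, where it did not pass (adjusted p = 0.198).

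Rostral to the striatal level all 7 genes were lower. From c9 to c11 to c12, Drd2 fell by 3.40 ± 0.40, Gprin3 by 3.29 ± 0.56, Drd1 by 3.25 ± 0.42, Ppp1r1b by 2.90 ± 0.32, Pde10a by 2.72 ± 0.35, Tac1 by 2.31 ± 0.25 and Adora2a by 1.00 ± 0.19 (log2; beside 11.3% of probes that were lower). All 7 were lower in c13 as well, beside 17.3% of probes, with Ppp1r1b at -3.69 ± 0.32 the most and Adora2a at -0.83 ± 0.19 the least. Each value rests on 2 arrays at c12 and 2 at c13, and the part of the bulb markers at c12 was not tested. With fractions paired by number, which sets C12 beside Co12, none of the 7 genes passed at c12. Without Co14 the Adora2a difference at c12 was -0.67 (adjusted p = 0.0520), and without Co15 that at c13 was -0.55 (adjusted p = 0.0839). For Gprin3, 1 of 2 arrays was well above background at each of these levels. Its differences were -1.39 at c12 and -1.44 at c13 after normexp, and -1.48 and -1.41 with the further probe.

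**Figure D2:**
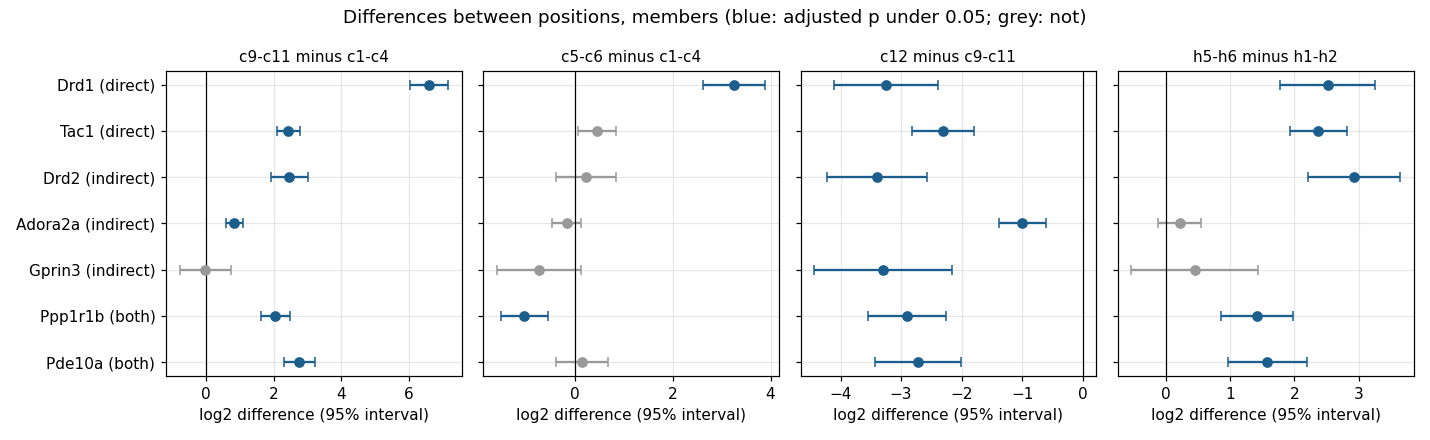
Log2 difference of each gene between positions (points) with its 95% interval (bars), for striatal minus hindbrain, midbrain minus hindbrain, c12 minus striatal and ventral minus dorsal pairs; blue marks an adjusted p under 0.05. At midbrain, Drd1 is higher and Ppp1r1b lower, whereas at c12 all 7 genes lie below 0.

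Direct and indirect pathway genes were compared by the log2 difference of their probes on each array, which shows unequal change between positions and not which gene is more abundant. Of the 21 differences among the 7 genes, 20 varied over the 28 pairs, and Ppp1r1b minus Pde10a did not pass (adjusted p = 0.134). All 4 of the differences that set Drd1 or Tac1 against Drd2 or Adora2a varied: Drd1 minus Drd2 (adjusted p = 2.51e-13), Drd1 minus Adora2a (2.12e-11), Tac1 minus Adora2a (3.99e-07) and Tac1 minus Drd2 (6.95e-05). With the slide as a fixed block, 3 of these 4 varied.

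Drd1 minus Drd2 changed in steps along the coronal axis. In C1 to C4 it was -5.11, -5.20, -4.58 and -4.53, and in Co2 to Co5 it was -4.78, -3.21, -5.55 and -4.01. At midbrain it was -1.38 and -1.58 in C5 and C6, and -1.89 and -1.55 in Co6 and Co7. From c7 to c13 it stayed between -0.88 and -0.15 in the paired fractions of both mice, whereas the unpaired Co1 was at -3.18 and Co13 at 0.41. The hindbrain, midbrain and more rostral arrays thus formed separate ranges, in which Drd1 was lowest against Drd2 caudally.

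From the hindbrain to the midbrain level, Drd1 minus Drd2 was higher by 3.02 ± 0.24 (adjusted p = 1.72e-11; C 3.37, Co 2.67), by 2.87 without c3 (95% interval 2.35 to 3.39) and by 2.30 with fractions paired by number (adjusted p = 2.00e-04). With the slide as a fixed block this midbrain value was 2.61 (adjusted p = 0.0141). In the main model the difference was 3.96 ± 0.24 at c7 and c8 (adjusted p = 1.86e-14) and 4.13 ± 0.21 at the striatal level (adjusted p = 1.54e-16; C 4.30, Co 3.95). After normexp the 3 values were 1.45, 2.31 and 2.38, all past the threshold. Rostral to the striatal level no difference passed, with 0.15 ± 0.32 at c12 (95% interval -0.50 to 0.81) and -0.16 ± 0.32 at c13 (-0.82 to 0.49).

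For Tac1, the other direct pathway gene, no such step was detected. Tac1 minus Drd2 differed by -0.04 ± 0.19 between the striatal and hindbrain levels (95% interval -0.43 to 0.34, adjusted p = 0.880) and by 0.22 ± 0.21 at midbrain (-0.22 to 0.65, adjusted p = 0.453). By contrast, Drd1 minus Tac1, the difference between the direct pathway genes themselves, was 2.80 ± 0.25 higher at midbrain (adjusted p = 2.68e-10) and 4.17 ± 0.22 higher at the striatal level (adjusted p = 4.18e-16). After normexp these were 1.20 and 2.38, both past the threshold. The coronal step of Drd1 thus set it apart from the other direct pathway gene as well as from Drd2. Tac1 minus Drd2 was higher by 1.09 ± 0.28 at c12 than at the striatal level (adjusted p = 0.00497, 1.09 in each mouse), but the adjusted p was 0.0509 without C12 and 0.0612 without Co14.

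Among the indirect pathway genes, Drd2 minus Adora2a was higher by 1.64 ± 0.29 at the striatal than the hindbrain level (adjusted p = 2.25e-05). Blocking on the slide gave 2.80, which did not pass (adjusted p = 0.0851). At midbrain, where Drd2 is the autoreceptor of dopamine neurons, Drd2 minus Adora2a was 0.40 ± 0.33 (95% interval -0.28 to 1.08, adjusted p = 0.375), so no difference was detected at this precision. Drd2 minus Ppp1r1b was higher there by 1.26 ± 0.23 (adjusted p = 8.44e-05), together with the lower level of Ppp1r1b given above, and by 1.93 when slides were blocked. With fractions paired by number, Drd2 minus Ppp1r1b was 0.22 at midbrain and did not pass (adjusted p = 0.742).

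**Figure D3:**
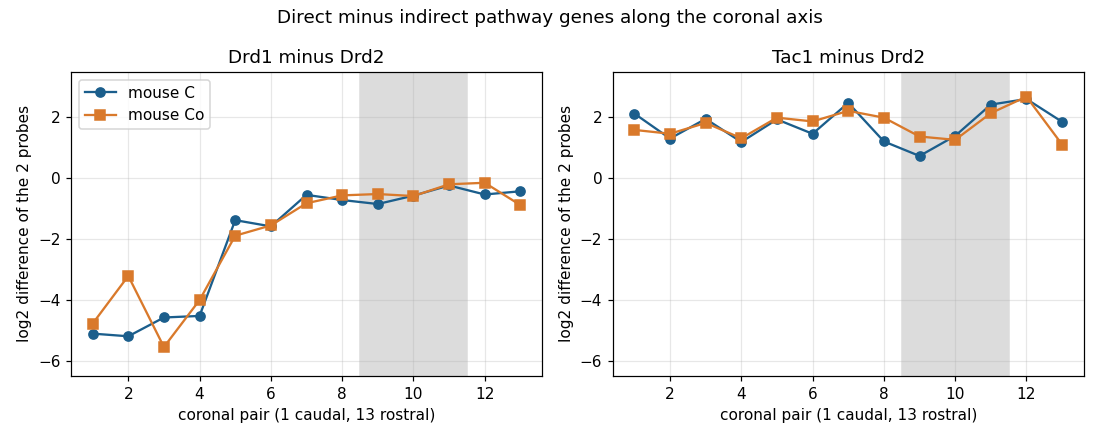
Log2 difference of the Drd1 and Drd2 probes (left) and of the Tac1 and Drd2 probes (right) in the 13 coronal pairs of mouse C (circles) and mouse Co (squares), with grey marking c9 to c11. Drd1 minus Drd2 lies between -5.55 and -3.21 in the 4 caudal pairs and above -1 from c7 on, whereas Tac1 minus Drd2 shows no such step.

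Markers of other cells moved with the midbrain and striatal levels. Of 7 midbrain dopamine neuron markers, 6 were higher at midbrain than at the hindbrain level, Slc6a3 the most (5.83), and the 7 had a summed level of 12.5 to 32.0 times the 75th percentile there against 3.09 to 6.84. Of 5 cortical projection neuron markers, 5 were higher at midbrain by 1.60 to 6.35 and at the striatal level by 2.37 to 7.38, with summed levels of 0.442 to 1.52 in the hindbrain, 3.06 to 7.45 in the midbrain and 7.36 to 14.3 in the striatal fractions. Of these 5 genes, 2 were not well above background on any hindbrain array, whereas none of the 7 dopamine markers was absent in this sense at either level. At the striatal level 2 of 7 dopamine neuron markers were higher and 4 lower than in the hindbrain. The hippocampal marker Spink8 was higher at midbrain (5.21) and at the striatal level (4.57), and hypothalamic (2 of 2) and habenula (2 of 2) markers at the striatal level only. Markers of Purkinje cells (3 of 3), granule cells (3 of 3), astrocytes (3 of 3), choroid plexus (3 of 3) and medulla (2 of 2) were lower at both levels than in the hindbrain fractions. The part of these cells in the differences of the 7 genes was not tested.

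In the fraction of each mouse where Slc6a3 peaked (S4, So7, C6, Co7, H4 and Ho6), Drd2 lay above the median of that mouse in 6 of 6 mice, by 0.02 to 0.75. Drd1 and Pde10a did so in 5, Tac1, Ppp1r1b and Gprin3 in 4 and Adora2a in 2. In the coronal plane, which separates midbrain from striatum, Drd2 was 0.16 above the median in C6 (rank 6 of 13 fractions) and 0.02 above it in Co7 (rank 8 of 16), so it did not stand out in the dopamine neuron fraction there.

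Along the horizontal axis, 5 of 7 genes were higher in the ventral pairs h5 and h6 than in the dorsal pairs h1 and h2, beside 8.48% of probes. Drd2 differed most, at -3.50, -2.04, -2.56 and -0.24 in H1, H2, Ho2 and Ho3 and at 0.57, 1.40, 1.03 and 0.39 in H5, H6, Ho6 and Ho7, a difference of 2.93 ± 0.35 (adjusted p = 3.88e-07). Drd1 was at -3.33, -2.51, -2.19 and -0.94 dorsally and at -0.13, 1.02, 0.22 and -0.02 ventrally, a difference of 2.52 ± 0.36 (adjusted p = 7.43e-06). Tac1 was at 0.35, 0.66, 0.24 and 1.28 dorsally and at 2.69, 3.87, 2.71 and 2.75 ventrally (2.37 ± 0.22, adjusted p = 3.14e-09). Dorsal and ventral arrays did not overlap for these 3 genes.

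Pde10a (1.58 ± 0.30, adjusted p = 3.09e-04) and Ppp1r1b (1.42 ± 0.27, adjusted p = 3.64e-04) passed as well, while Gprin3 (0.45 ± 0.48, 95% interval -0.54 to 1.44) and Adora2a (0.21 ± 0.16, -0.12 to 0.54) did not. The further Gprin3 probe gave 0.94 (adjusted p = 0.0371). The difference was larger in H than in Ho for Drd2 (3.76 and 2.11), Drd1 (3.37 and 1.66), Tac1 (2.77 and 1.97), Ppp1r1b (1.94 and 0.91) and Pde10a (2.01 and 1.15). When slides were blocked, 1 of 7 genes (Tac1) passed: Drd2 was at 2.42 (adjusted p = 0.121), Drd1 at 1.88 (0.241), Pde10a at 1.33 (0.277) and Ppp1r1b at 1.08 (0.340). Of the cortical projection neuron markers 4 of 5 were lower ventrally, with a summed level of 7.56 to 10.6 dorsally against 3.06 to 4.09 ventrally, while 5 of 7 dopamine neuron markers were higher (6.20 to 7.71 against 8.54 to 20.2) and so were both hypothalamic markers. Markers of cholinergic neurons (3 of 3), oligodendrocytes (3 of 3), choroid plexus (3 of 3), medulla (2 of 2) and olfactory bulb (2 of 3) were higher ventrally too, and those of Purkinje cells (3 of 3) and cerebellar granule cells (3 of 3) were lower. The part of these cells was not tested.

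Between the receptor genes of the pathways no dorsal to ventral difference was detected: Drd1 minus Drd2 differed by -0.42 ± 0.28 (95% interval -0.98 to 0.15, adjusted p = 0.412) and did not vary over the 6 horizontal pairs (adjusted p = 0.281). Other differences between the pathways did vary over these pairs, namely Tac1 minus Adora2a (adjusted p = 7.19e-05), Tac1 minus Drd2 (2.72e-04) and Drd1 minus Adora2a (0.00157), while Tac1 minus Drd2 did not pass between the ventral and dorsal pairs (-0.56 ± 0.25, adjusted p = 0.145). Drd2 minus Adora2a was higher ventrally by 2.72 ± 0.38 (adjusted p = 5.48e-06), Drd2 minus Ppp1r1b by 1.51 ± 0.27 (adjusted p = 1.50e-04) and Drd2 minus Pde10a by 1.35 ± 0.26 (adjusted p = 3.58e-04). When slides were blocked none of the 3 passed (2.63, 1.35 and 1.10), and with the second Pde10a probe the last was 0.63 (adjusted p = 0.567).

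**Figure D4:**
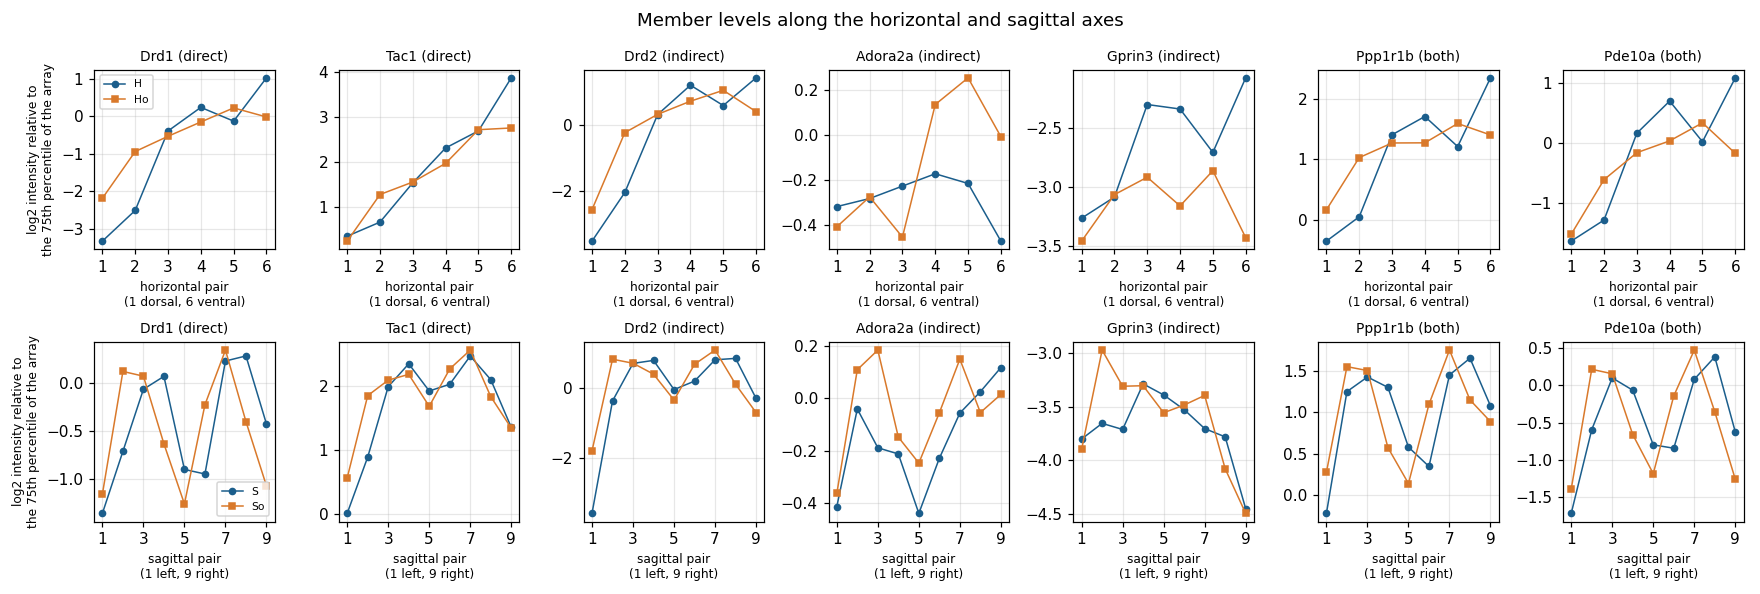
Level of each gene (log2 intensity relative to the 75th percentile of the array) in the 6 horizontal pairs from dorsal to ventral (top row, mice H and Ho) and in the 9 sagittal pairs from left to right (bottom row, mice S and So); each panel has its own scale. Drd1, Tac1, Drd2, Ppp1r1b and Pde10a are lowest in the dorsal pairs, and the same genes show a maximum on each side of the midline pair 5.

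In the sagittal plane Drd1, Tac1, Drd2, Ppp1r1b and Pde10a had a maximum on each side of the midline. Drd1 was at -0.90 in S5 and -1.25 in So6, the midline fractions, against 0.07 in S4, 0.28 in S8, 0.12 in So3 and 0.34 in So8. In S, 4 of 7 genes were highest in S8, and in So, 5 of 7 were highest in So8. S8 and So8 are not partners, since S8 was paired with So9 and So8 with S7. Intermediate pairs were set as s3, s4, s6 and s7, outer pairs as s1, s2, s8 and s9, and the midline pair as s5. S8 (pair s8) and So3 (pair s2) thus counted as outer, so the intermediate pairs do not hold all of these maxima. The differences between intermediate and midline pairs were 0.93 for Drd1 (95% interval 0.10 to 1.76), 0.88 for Pde10a (0.19 to 1.56), 0.86 for Drd2 (0.06 to 1.66) and 0.82 for Ppp1r1b (0.19 to 1.45). After adjustment over all probes 0 of 7 genes passed, as few probes did (0.186% in either direction). By limma's unadjusted p, 4 of 7 were under 0.05, as were 4.15% of probes. Between the outer pairs and the midline pair 0 of 7 passed (10.5% of probes in either direction), and 1, Tac1, had an unadjusted p under 0.05, as did 20.6% of probes.

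Left and right did not differ in any of the 7 genes after adjustment (0.153% of probes in either direction), and 2 had an unadjusted p under 0.05, as did 7.60% of probes: Drd2 (-0.63, left minus right) and Tac1 (-0.50). Beside these, genes of midbrain dopamine and hypothalamic neurons, which lie near the midline, were compared. Of 7 dopamine neuron markers, 2 passed as lower on the left, Slc6a3 (-2.08) and Slc18a2 (-1.44), and 0 as higher. The 7 had a median of -0.51 and a highest value of 0.28. Both hypothalamic markers, Hcrt (-3.05) and Pmch (-3.06), passed as lower on the left. The summed level of the hypothalamic markers Hcrt and Pmch was 0.0674 to 17.2 on the left and 0.571 to 19.7 on the right. The part of these cells in the left and right values of the 7 genes was not tested.

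The outermost left fractions set Drd2 apart. Drd2 was at -3.56 in S1, its lowest level of all 61 fractions, at -1.79 in the partner So2 and at -2.06 in So1, while Drd1 was at -1.35, -1.15 and -1.88 there. Drd1 minus Drd2 was 2.21 in S1 and 0.64 in So2 against a median of -0.56 in S and -0.65 in So, and it varied over the sagittal pairs (adjusted p = 9.10e-04), as did Tac1 minus Drd2 (0.0156). On the right edge it was -0.12 in S9 and -0.36 in So10. S1, So1 and So2 are the fractions with the lowest shares of probes well above background (59.1%, 58.8% and 57.9%), and the part of this in the left edge was not tested.

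Levels over the 61 fractions were compared by Pearson's r, as a description, since fractions of 1 brain share tissue borders and arrays share slides. Among the 7 genes, Tac1 and Drd2 were most alike (r = 0.88), followed by Ppp1r1b and Pde10a (0.87) and Drd1 and Pde10a (0.83). Drd1 and Drd2 reached 0.65 over all fractions, 0.69 in C and 0.67 in Co, but 0.99 in H and 0.99 in Ho. For Drd1 and Gprin3 the pooled value was the lowest (0.14), but within the mice it was -0.01 in S, -0.05 in C and -0.03 in Co against 0.75 in So, 0.95 in H and 0.79 in Ho.

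Among 21816 named probes of other genes, the pattern most like that of Drd1 was that of Gpr6, a receptor gene of the indirect pathway (r = 0.97), followed by Ido1 (0.95) and Pde1b (0.93). Within the mice, r between Drd1 and Gpr6 lay between 0.95 (So, 10 fractions) and 0.99 (S, 9 fractions). Rgs9, a striatal regulator of G protein signalling, came first for Tac1 (0.87). Serpina9 was first for Drd2 (0.90) and second for Tac1 (0.86), with Rarb, a retinoic acid receptor gene, next for both (0.88 and 0.85). Drd2 was also like Mme, which encodes the peptidase neprilysin (0.87).

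For Ppp1r1b the most like were Krt10 (0.94), Gnal, which encodes the G protein alpha subunit of striatal and olfactory cells (0.89), and Fancb (0.86), and for Pde10a they were St8sia3 (0.93), Ptpn7 (0.93) and Fancb (0.92). Adora2a was most like Cd4 (0.83), Krt10 (0.77) and Musk (0.75). Gprin3 had none of the striatal genes among its nearest, which were Slc7a14 (0.87), Rph3a (0.84) and Ube2j1 (0.84).

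**Figure D5:**
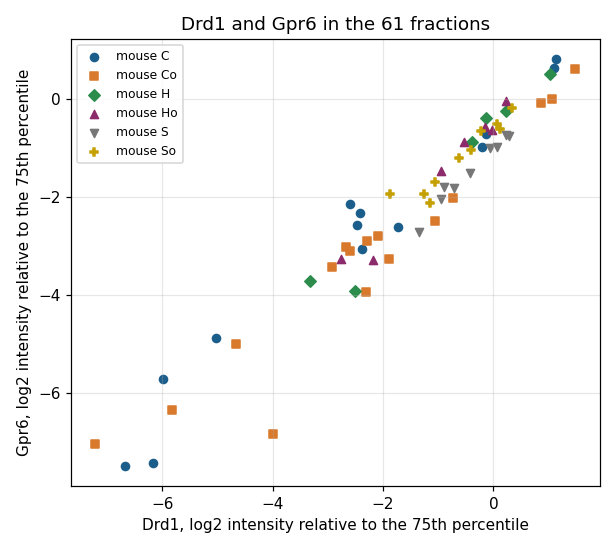
Levels of Gpr6 against Drd1 (both log2 intensity relative to the 75th percentile of the array) in all 61 fractions, with 1 symbol for each of the 6 mice. The fractions of all mice lie along 1 band, with coronal hindbrain fractions at the low end and striatal fractions at the high end; Gpr6 was well above background on 57 of the 61 arrays.

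A wider list of 21 striatal genes, chosen like the others with results of these data known, of which 17 had a tested probe (no probe was found for Rasd2, Scn4b, Sp9 and Gpr52), gave the same comparisons beyond the 7 genes. At the striatal against the hindbrain level, 16 of 17 were higher and 0 lower (median 2.28), beside 20.4% of probes that were higher, and Rasgrp2 did not pass (0.63, well above background on 1 array). Of the direct pathway genes in it, 4 of 4 were higher: Isl1, a transcription factor (3.58), Pdyn, the dynorphin precursor (3.56), Slc35d3, a transporter gene (2.03), and Chrm4, a muscarinic receptor (0.52). Of the indirect pathway genes, both were higher, Gpr6 (6.50, and 4.04 after normexp) and Penk, the enkephalin precursor (1.25). Examples among the genes of both pathways were Arpp21 (4.77), Rgs9 (4.61) and Bcl11b (4.11).

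At midbrain, 11 of the 17 were higher than at the hindbrain level and 2 lower, beside 13.9% and 20.7% of probes. Gpr6 was higher by 3.17 ± 0.34 (adjusted p = 1.04e-08; C 3.56, Co 2.79), a size that is not exact because Gpr6 was not well above background in C2, C3, Co3 and Co4, and by 1.30 after normexp (adjusted p = 1.58e-04). Pdyn was higher by 1.26 ± 0.16 (adjusted p = 2.00e-07), while Penk was lower by -1.36 ± 0.17 (adjusted p = 1.16e-07) and Isl1 by -1.50 ± 0.49 (adjusted p = 0.0168). In the direct pathway Drd1 and Pdyn were thus higher and Isl1 lower, and in the indirect pathway Gpr6 was higher and Penk lower. Ventrally, 13 of 17 were higher and 0 lower, beside 8.48% of probes that were higher, with Isl1 (6.52), Slc35d3 (3.07) and Gpr6 (2.96) the most.

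Between the 2 mice of the coronal plane, Gprin3 was higher in Co than in C in 12 of 13 pairs, by a mean of 1.14 ± 0.77 (SD of 13 pairs, log2), and Adora2a was lower in Co in all 13 pairs (-0.36 ± 0.18). Pde10a was higher in Co in 11 of 13 pairs (0.49 ± 0.40), and Ppp1r1b was higher in Co in 2 of 13 (-0.37 ± 0.46). Drd2 was higher in Co in 10 of 13 pairs (0.11 ± 0.49), Tac1 in 9 (0.12 ± 0.41) and Drd1 in 7 (0.23 ± 0.76). For Drd1, Drd2, Tac1 and Ppp1r1b the mean was smaller than the SD over the pairs. C and Co were scanned on different days, so mouse and scan day cannot be told apart.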

How the data were processed

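Intensities of 61 single-colour arrays were deposited per spot as background-subtracted processed signals of Agilent Feature Extraction 9.1 (per the labels), with no scaling between arrays. A second deposited table holds the authors' per-chip normalized intensities and served as an alternative. Spots of a probe were averaged, and log2 of the deposited intensities was reduced by each array's 75th percentile. Of 41174 probes, the 36573 well above background on at least 1 array were tested with limma 3.58.1 in R 4.3.3. The model had 1 coefficient per fraction pair over 56 arrays (28 residual degrees of freedom). The study chose the pairs by the highest correlation between arrays over all probes, so the residual spread comes from arrays picked to be alike. Moderated F tests and contrasts of positions were adjusted by Benjamini-Hochberg over 36594 rows, which include 21 differences between probes of the 7 genes, at 0.05. The number of mice and arrays limits the precision. The members, gene lists and tests were chosen with earlier results of these data known. Named genes are the 7 members, the wider striatal list, the marker genes and, for each member, the 3 other genes of highest r. The model was tested on simulated data. Tables used Python 3.11.15, numpy 2.4.6 and pandas 2.3.3.

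Fractions of 1 mouse deviated together from their pair means (median r = 0.278 over 129 combinations, 115 above 0.1) and fractions of different mice did not (median r = -0.0255 over 249 combinations), so the mouse was used as a block in an alternative. Others were the scaling, background correction, detection filter, other probes, other pairings, single planes, slide and scan day, and leaving out each array. The other probe of Drd2 alone and leaving out c3 were chosen after seeing the data.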

Additional observations from a re-analysis of the deposited data

How the results depend on the processing

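With the mouse as a replicate block, 31440 probes varied over the pairs in place of 22417, as did 7 of 7 genes. No call of the 7 genes that passed in the main model was lost, and calls that did not pass there were for the most part not followed. Probes varying numbered 13772, 4603 and 2421 with coronal, horizontal or sagittal pairs only, and 14773 with probes well above background on all arrays. Members varying numbered 3 with horizontal and 2 with sagittal pairs only, and direct against indirect differences 2 in each, as well as 2 of the 2 left with probes well above background on all arrays. Members higher ventrally numbered 1 with the slide as a fixed block, which could not be fitted for the sagittal contrasts. Drd2 minus Adora2a at midbrain turned to -0.14 (adjusted p = 0.880) when fractions were paired by number in place of the highest correlation between arrays; with that pairing 15418 probes and 5 members varied, and all 7 calls at c12 were lost. The cause of these changes was not tested. When single arrays were left out, 21561 to 22767 probes varied, with 7 members varying, 4 direct against indirect differences, 6 members higher at the striatal level, 5 ventrally and 0 in either sagittal comparison, 2.77 to 3.27 for Drd1 minus Drd2 at midbrain, and 0.21 to 0.59 for Drd2 minus Adora2a. Single values were counted only where they passed in the main model, for the 7 genes and some of their differences, so none could gain the threshold. Of these under the other alternatives, 810 kept their direction and side of the threshold and 53 lost the threshold. With arrays left out one at a time, 2986 kept both and 38 lost the threshold. Most arrays left out had no part in a given contrast, whose difference then could not change, so these counts do not measure robustness. Drd1 near background in c3 and Gprin3 near background in c12 and c13 limit the size of their differences.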
